A study of Mus musculus with 29 samples.

Results

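Matrix metalloproteinases are zinc-dependent enzymes that cut collagens, gelatins and other proteins outside the cell, and they are held in check by tissue inhibitors of metalloproteinases (TIMPs) and a few further inhibitors. The 10 genes described here were 5 proteases (Mmp2, Mmp8, Mmp9, Mmp13, Mmp14) and 5 inhibitors (Timp1, Timp2, Timp3, Tfpi2, Reck). All 22 probe sets (groups of short probes against one transcript) that the platform annotation maps to exactly 1 of these symbols were used, of 45101 on the array. Each gene took the value of its probe set of highest mean over all arrays, and 18193 genes were measured in this way.

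All mice carried TH-MYCN, a transgene in which the tyrosine hydroxylase promoter drives MYCN in sympathoadrenal cells, so that neuroblastoma arises in that lineage. The strain was given as 129X1/SvJ for every sample. Animals differed in caspase-8, the protease that starts apoptosis at death receptors, which was either wild type or deficient. Primary abdominal tumours made up 24 samples, 7 wild type and 17 deficient, and total bone marrow made up 5, with 2 wild type and 3 deficient samples. Ages, the cells in which caspase-8 was removed, and whether marrow held tumour cells are not given in the sources used here.

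Values are log2 expression, so a difference of 1 is a doubling, and they ran from 1.87 to 14.4 over the array. Casp8 itself averaged 5.88 ± 0.57 in the 7 wild type tumours against 5.62 ± 0.44 in the 17 deficient ones, and in marrow 9.46 ± 0.23 against 9.14 ± 0.12 (mean ± SD). The position of the deletion is not given, so its probe set does not check the genotype. Markers fitted the tissue labels: the mean of 10 neutrophil markers lay between 11.4 and 11.9 in marrow and between 3.45 and 5.12 in tumours, and the mean of 9 sympathoadrenal markers between 9.01 and 10.2 in tumours and between 4.21 and 4.43 in marrow. Titles number the tumours in a lower series (10 tumours, 3 of them wild type) and a higher series (14 tumours, 4 of them wild type), with all marrow in the higher one, and the labels do not say what the numbers stand for. Xist, the X-inactivation RNA of female cells, was high in all 3 deficient and in neither wild type marrow sample, and in 10 of 17 deficient and 3 of 7 wild type tumours.

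Collagenases such as MMP8 and MMP13 make the first cut in fibrillar collagen, and the gelatinases MMP2 and MMP9 digest the unwound chains and basement membrane collagen. MMP8 and MMP9 are stored in neutrophil granules, while MMP13 is made by osteoblasts and hypertrophic chondrocytes. MMP14 sits in the cell membrane and, together with TIMP2, activates MMP2. TFPI2 is a Kunitz-type inhibitor of plasmin and other serine proteases deposited in the matrix, and RECK is a membrane-anchored inhibitor that restrains MMP2, MMP9 and MMP14.

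Mmp8 and Mmp13 are encoded in one cluster of metalloproteinase genes on mouse chromosome 9, in the order Mmp13, Mmp12, Mmp1b, Mmp3, Mmp1a, Mmp10, Mmp8, Mmp27, Mmp20, Mmp7, with no other coding gene between them in the RefSeq gene table. Their upstream sequences are shown with that of Mmp12, the neighbour of Mmp13, because these 3 genes of one cluster differed in their levels over the tissues, as described below. Each sequence is the 250 bases before the annotated start, on the plus strand of GRCm38.p6, from RefSeq. Capitals mark matches, searched on both strands, to TGANTCA, the site bound by AP-1 factors, and to ACCACA, a core of Runx sites. They lie at chr9:7272264-7272513 (Mmp13), chr9:7347124-7347373 (Mmp12) and chr9:7558179-7558428 (Mmp8).

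Mmp13: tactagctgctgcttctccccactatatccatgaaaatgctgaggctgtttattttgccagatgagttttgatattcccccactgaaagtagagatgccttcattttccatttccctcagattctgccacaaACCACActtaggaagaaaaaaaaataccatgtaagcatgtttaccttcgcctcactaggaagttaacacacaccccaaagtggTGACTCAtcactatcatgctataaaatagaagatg
Mmp12: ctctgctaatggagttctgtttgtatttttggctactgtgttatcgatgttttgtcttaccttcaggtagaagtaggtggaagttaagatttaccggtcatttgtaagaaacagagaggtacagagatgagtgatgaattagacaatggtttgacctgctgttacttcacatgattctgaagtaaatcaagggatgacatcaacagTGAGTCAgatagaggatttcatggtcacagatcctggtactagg
Mmp8: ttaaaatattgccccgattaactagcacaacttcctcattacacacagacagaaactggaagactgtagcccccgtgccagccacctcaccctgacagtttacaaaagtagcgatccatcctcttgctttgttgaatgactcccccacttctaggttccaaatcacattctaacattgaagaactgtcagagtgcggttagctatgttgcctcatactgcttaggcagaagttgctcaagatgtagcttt

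The Mmp13 sequence held an AP-1 match that begins 35 bases before the start, with a Runx match farther upstream, and that of Mmp12 an AP-1 match 44 bases before it. A second annotated start of Mmp12, with no match, is not shown. No match to either motif was found in the Mmp8 window. Over all 32851 RefSeq windows, each holding 250 bases before and 50 after a start, 7.81% held the AP-1 letters and 16.8% the Runx letters. RefSeq promoters were at hand for 8 members, Mmp2 and Mmp9 being the exceptions, and among these the AP-1 letters occurred for Mmp13 and Tfpi2, and the Runx letters for Mmp13, Tfpi2 and Mmp14. The Tfpi2 matches belonged to a single annotated start, with the Runx match after that start, and its other annotated starts held none. These 8 members had 10 windows, so counts by member are not on the same footing as the shares of windows. A match describes the letters and not the binding of a factor.

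The neutrophil proteases separated marrow from tumours by far the most among the members. Mmp8 was at 11.04 and 10.98 in wild type marrow and at 10.95, 11.01 and 11.30 in deficient marrow. In wild type tumours 1 to 7 it was at 3.69, 3.11, 3.35, 2.99, 3.3, 3.39 and 2.92, and deficient tumours ran from 2.97 through a median of 3.32 to 3.75. All 24 tumours lay far below all 5 marrow samples, and the genotypes overlapped in both tissues. The difference, tumours minus marrow, was -7.76 (SE 0.10, limma adjusted p = 2.162e-31). The tumour values were near the low end of the array's range, where RMA compresses signals and the files hold no background call, so no fold is given for Mmp8, nor for Mmp9 below.

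Mmp9 followed the same division. Its marrow values were 10.41 and 11.36 in wild type and 11.01, 11 and 11.13 in deficient samples. Wild type tumours 1 to 7 gave 3.72, 3.95, 3.86, 3.96, 4.58, 4.12 and 3.73, and deficient tumours 3.63 at the lowest, 3.95 at the median and 4.45 at the highest. Here too no tumour reached the lowest marrow sample. Tumours minus marrow came to -6.99 (SE 0.12, limma adjusted p = 2.061e-28). Because these are bulk samples, fewer cells of a type and less RNA per cell cannot be told apart, here or in any later comparison.

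Mmp13, the bone collagenase, was also higher in marrow but with a wide spread. It was at 10.50 and 9.33 in wild type marrow and at 8.62, 7.60 and 7.45 in deficient marrow. Wild type tumours 1 to 7 were at 5.45, 6.06, 4.68, 5.46, 8.37, 5.34 and 4.97, and deficient tumours between 4.51 and 7.57 with a median of 5.66. Wild type tumour 5 and deficient tumour 5 were the exceptions that reached the marrow range, and 22 of 24 tumours lay below it. The difference from marrow was -3.24 (SE 0.44, limma adjusted p = 1.702e-07).

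Mmp2, the gelatinase of connective tissue cells, was higher in tumours than in marrow. Wild type tumours 1 to 7 were at 7.33, 6.41, 6.16, 5.73, 5.70, 6.62 and 5.94, and deficient tumours between 5.65 and 7.16 with a median of 6.31. Marrow was at 6.29 and 5.07 in wild type and at 5.30, 4.58 and 4.71 in deficient samples. Both ranges overlapped only through wild type marrow 1, and 12 of 24 tumours lay above that sample. The difference was 1.04 (SE 0.24, limma adjusted p = 0.0002985).

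Mmp14, the membrane-bound activator of MMP2, was at 7.77, 6.85, 7, 7, 6.72, 6.85 and 6.52 in wild type tumours 1 to 7 and ran from 5.87 through a median of 6.86 to 8.07 in deficient ones. Marrow values were 6.6 and 6.45 in wild type and 6.46, 6.31 and 5.76 in deficient samples. The highest marrow value was exceeded by 18 of 24 tumours. The difference of 0.54 (SE 0.25) missed the threshold, at a limma adjusted p of 0.0525. It passed in the higher title series alone, at 0.61 (adjusted p = 0.00675), and without deficient marrow 1, at 0.61 (adjusted p = 0.0463).

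**Figure D1:**
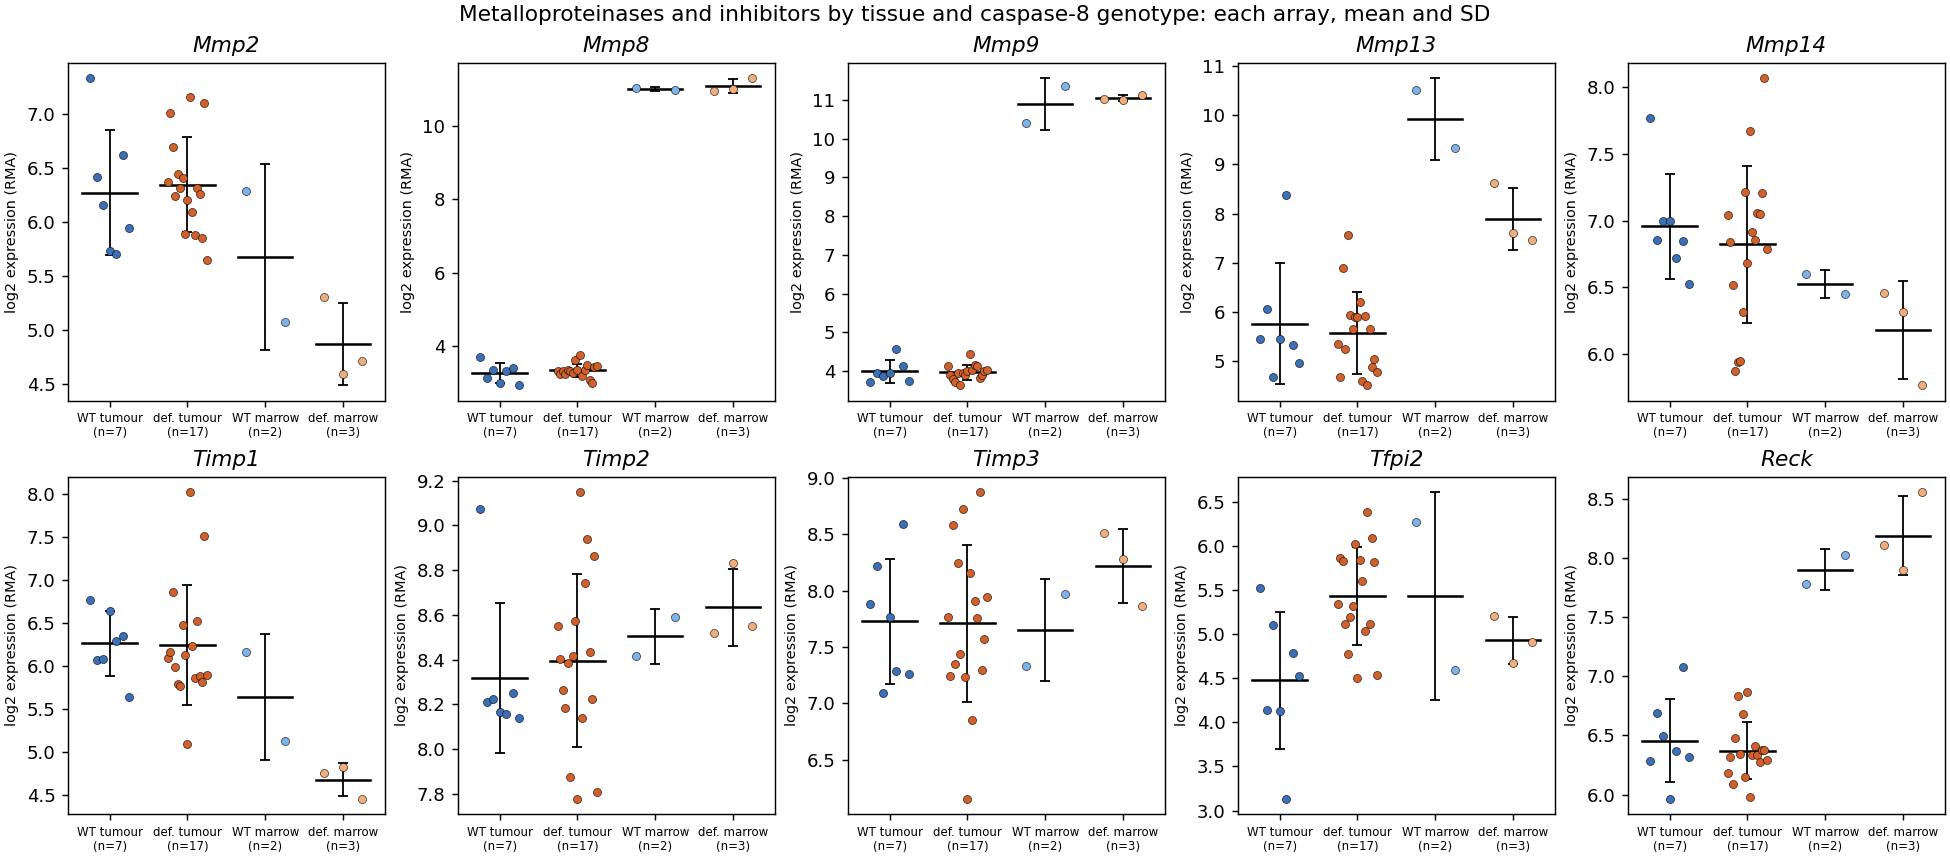
Log2 expression (RMA) of the 10 genes in every sample, by tissue and caspase-8 genotype, with the horizontal line at the group mean and bars of 1 SD (n = 7, 17, 2 and 3). Each panel has its own axis, which does not start at 0. Mmp8 and Mmp9 lie near 11 in all marrow samples and below 5 in all tumours, and Tfpi2 is higher in most deficient than in most wild type tumours.

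The 5 inhibitors did not share one tissue pattern. Reck, the membrane-anchored inhibitor, was lower in all 24 tumours than in any marrow sample. Its marrow values were 7.78 and 8.02 in wild type and 8.11, 7.90 and 8.56 in deficient samples, against 6.29, 6.69, 6.49, 5.96, 6.37, 7.08 and 6.31 in wild type tumours 1 to 7. Deficient tumours ran from 5.98 through 6.34 at the median to 6.87. The difference was -1.63 (SE 0.14, limma adjusted p = 6.736e-12), 3.1-fold higher in marrow.

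Timp1, a secreted inhibitor induced in wounds and inflammation, went the other way. It was at 6.77, 6.08, 6.08, 6.64, 6.29, 6.35 and 5.64 in wild type tumours 1 to 7 and between 5.09 and 8.02, with a median of 6.09, in deficient tumours. Marrow was at 6.16 and 5.13 in wild type and at 4.76, 4.83 and 4.46 in deficient samples. Most tumours lay above most marrow samples, with an overlap through the wild type marrow samples. Tumours exceeded marrow by 1.09 (SE 0.29, limma adjusted p = 0.001381).

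Timp2, Timp3 and Tfpi2 overlapped between the tissues. Timp2, the partner of MMP14, was between 7.78 and 9.15 in tumours and between 8.42 and 8.83 in marrow, a difference of -0.21 (SE 0.17, limma adjusted p = 0.266). With each array centred on its median, which moved the median difference of all genes from -0.10 to -0.39, Timp2 was called at -0.50 (adjusted p = 0.00524). Timp3, the TIMP that stays bound to matrix, was between 6.15 and 8.88 in tumours and between 7.33 and 8.51 in marrow, a difference of -0.22 (SE 0.30, adjusted p = 0.525). Tfpi2 was between 3.13 and 6.39 in tumours and between 4.60 and 6.27 in marrow, a difference of -0.23 (SE 0.30, adjusted p = 0.505). The intervals reached from -0.57 to 0.14 for Timp2, from -0.84 to 0.41 for Timp3 and from -0.85 to 0.40 for Tfpi2.

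In all, 6 of 10 members passed the tissue test, 2 higher in tumours (Mmp2, Timp1) and 4 lower (Mmp8, Mmp9, Mmp13, Reck). Of all 18193 genes 76.4% passed, 34.2% higher and 42.2% lower in tumours. A share of 6 in 10 therefore lay near the background of these tissues, and what set Mmp8 and Mmp9 apart was the size of their differences, larger than those of 99.8% and 99.6% of genes.

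Less bright probe sets gave the same sign for Mmp2 (0.81) and Mmp9 (-6.05). For Mmp14 the dimmest of its 3 probe sets gave -0.26, against 0.54 for the brightest. Dimmer probe sets of Timp2 and Timp3 passed the test where the brightest did not. For Timp2 these were 2 of 6, at -0.38 (limma adjusted p = 0.00216) and -0.22 (adjusted p = 0.0283), and for Timp3 2 of 4, at -0.70 (limma adjusted p = 0.0126) and -0.31 (adjusted p = 0.0270), all lower in tumours. The probe sets at -0.22 and -0.31 averaged only 2.9 and 3.4 over all arrays, near the low end, where small differences are hard to read.

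Between caspase-8 genotypes in tumours, Tfpi2 was the member with the widest separation. Wild type tumours 1 to 7 were at 5.53, 4.14, 5.10, 4.13, 3.13, 4.79 and 4.53, a mean of 4.48 ± 0.78 (SD, n = 7). Deficient tumours ran from 4.51 through a median of 5.34 to 6.39, a mean of 5.44 ± 0.55 (SD, n = 17). The ranges overlapped, with 8 deficient tumours above the highest wild type tumour and 16 of 17 above the wild type median. The difference was 0.96 (SE 0.26, 95% interval 0.41 to 1.5), or 1.94-fold, with an unadjusted p of 0.001253 in limma and 0.00227 in an exact two-sided permutation test over 346104 splits of the tumours. Adjusted over all genes the limma p was 0.9997, so Tfpi2 was not called, and none of the 18193 genes was (0%, with 583 or 3.2% at an unadjusted p under 0.05).

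The size of the Tfpi2 difference varied with the samples used. It was 0.43 (SE 0.30) in the lower and 1.35 (SE 0.36) in the higher title series, and the test of the difference between the series gave 0.92 (SE 0.52, limma adjusted p = 0.922). Without wild type tumour 5, the lowest of all, it was 0.73, and without wild type tumour 1, the highest of its genotype, 1.13. With Xist level as a covariate it was 0.97, and with a measure of RNA integrity (the gap between 3' and 5' control probe sets) as a covariate, 0.84. That gap averaged 0.616 ± 0.145 over the 7 wild type tumours and 0.761 ± 0.175 over the 17 deficient tumours (mean ± SD).

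Several marker lists, among them those of the vessel wall, shifted in the same direction as Tfpi2. In deficient tumours 8 of 10 pericyte and smooth muscle markers were higher than in wild type, with a median difference of 0.48, and all 10 endothelial markers were higher, with a median of 0.46, beside a median of 0.0042 over all genes. Unadjusted limma p-values were under 0.05 for 4 of the pericyte and 7 of the endothelial markers, beside 3.2% of all genes, and no marker was called. Fibroblast markers (7 of 9 higher, median 0.27) and adipocyte markers (7 of 8 higher, median 0.23) also leaned upwards, with no unadjusted limma p under 0.05. Other lists shifted the other way. All 10 skeletal muscle markers were lower (median -0.68), as were 9 of 10 macrophage (-0.18) and 7 of 9 sympathoadrenal markers (-0.14). The pericyte mean ranged from 6.17 to 8.07 in wild type and from 6.99 to 8.31 in deficient tumours, and the endothelial mean from 4.76 to 6.16 and from 5.17 to 6.70. The part of any of these lists in the Tfpi2 difference was not tested.

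The other 9 members differed between tumour genotypes by less than their spread, and none had an unadjusted p under 0.05. Among the proteases, Mmp2 differed by 0.07 (SE 0.20), Mmp8 by 0.08 (SE 0.09), Mmp9 by -0.02 (SE 0.10), Mmp13 by -0.19 (SE 0.40) and Mmp14 by -0.14 (SE 0.23). Among the inhibitors, Timp1 differed by -0.02 (SE 0.26), Timp2 by 0.08 (SE 0.16), Timp3 by -0.02 (SE 0.28) and Reck by -0.08 (SE 0.12). The intervals for Mmp8 (-0.11 to 0.27), Mmp9 (-0.22 to 0.18) and Reck (-0.33 to 0.16) were the narrowest, and that of Mmp13 (-1.01 to 0.64) the widest.

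By its brightest probe set, Mmp14 differed in opposite directions in the title series. In the lower series wild type tumours averaged 7.21 ± 0.49 (SD, n = 3) and deficient ones 6.35 ± 0.47 (SD, n = 7), a difference of -0.85 (SE 0.29). The higher series gave averages of 6.77 ± 0.20 (SD, n = 4) for wild type and 7.15 ± 0.43 (SD, n = 10) for deficient tumours, which differ by 0.38 (SE 0.21). The test of the difference between the series gave 1.23 (SE 0.36) with an unadjusted p of 0.00239 and a limma adjusted p of 0.921. No gene was called in that test (0%, with 933 or 5.13% at an unadjusted p under 0.05). The middle and dimmest probe sets of Mmp14 gave smaller values there, 0.32 (SE 0.23) and 0.51 (SE 0.21). Over the 24 tumours their r with the brightest probe set was -0.10 and 0.81. In the same contrast 7 of 9 fibroblast markers were higher, with a median of 1.04, and 10 of 10 pericyte markers, with a median of 0.97. So were 10 of 10 skeletal muscle markers, with a median of 1.16, and 10 of 10 endothelial markers, with a median of 0.50. Over all genes 56.06% were higher, with a median of 0.028. The part of these lists in the Mmp14 values was not tested.

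**Figure D2:**
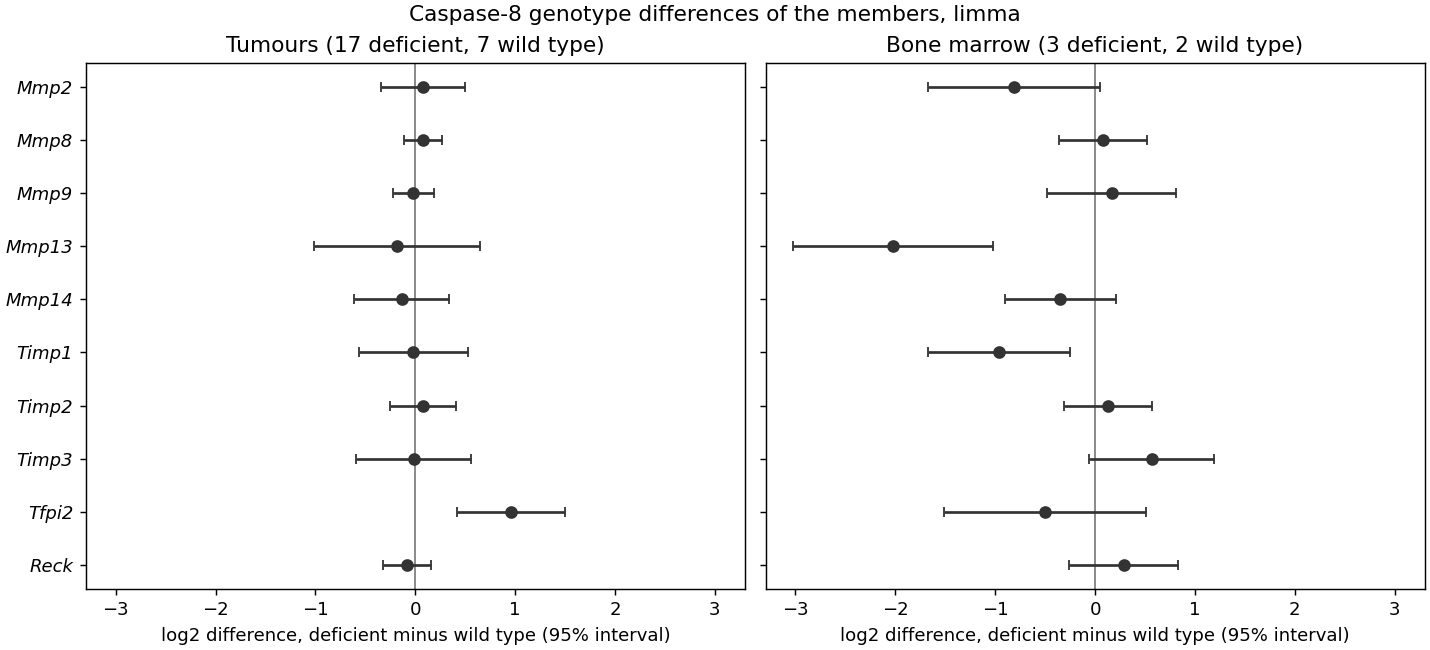
Log2 difference, deficient minus wild type, of each gene in tumours (17 against 7) and bone marrow (3 against 2), from limma, with points at the estimate and bars at the 95% interval. In tumours the interval of Tfpi2 alone stays above 0, and in marrow those of Mmp13 and Timp1 stay below 0, while no gene shown passed the threshold after adjustment.

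In marrow the genotypes differed most in Mmp13. Both wild type samples, at 10.50 and 9.33, lay above the 3 deficient samples, at 8.62, 7.60 and 7.45, and the groups did not overlap. The difference was -2.02 (SE 0.43, 95% interval -3.03 to -1.02), 4.07-fold higher in wild type, with an unadjusted p of 0.00171 and a limma adjusted p of 0.9996. Leaving out wild type marrow 1 gave -1.44 and leaving out wild type marrow 2 gave -2.61. Of all genes 4, or 0.022%, were called in marrow, all of them Xist or Y-linked, and 737, or 4.05%, had an unadjusted p under 0.05.

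Timp1 was the other member with groups that did not overlap. Wild type marrow was at 6.16 and 5.13 and deficient marrow at 4.76, 4.83 and 4.46, a difference of -0.96 (SE 0.31, limma adjusted p = 0.9996, unadjusted p = 0.0144). Leaving out the first wild type sample gave -0.44, and leaving out the other one gave -1.48. With 2 against 3 samples an exact permutation test cannot go below 0.1. The share of all genes with marrow groups that do not overlap was not taken. The separation of Mmp13 and Timp1 therefore cannot be read as a trait particular to these members. Since both wild type samples were low and all deficient samples high in Xist, the sex-linked split and the genotype cannot be told apart in marrow, and Timp1 is itself on the X chromosome.

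No other member had an unadjusted p under 0.05 in marrow. Mmp2 differed by -0.81 (SE 0.37), Timp3 by 0.57 (SE 0.27), Tfpi2 by -0.50 (SE 0.44), Mmp14 by -0.35 (SE 0.24), Reck by 0.29 (SE 0.24), Mmp9 by 0.17 (SE 0.28), Timp2 by 0.13 (SE 0.19) and Mmp8 by 0.08 (SE 0.19). Several of these rested on wild type marrow 1, which was the highest of the 5 for Mmp2, Mmp13, Mmp14, Timp1 and Tfpi2 and the lowest for Mmp9, Timp2, Timp3 and Reck. Tfpi2, for example, was at 6.27 there and at 4.60 in wild type marrow 2, with deficient samples at 5.21, 4.68 and 4.91 in between, and its difference was 0.33 without wild type marrow 1. Without that sample Mmp2 differed by -0.20 and Timp3 by 0.25.

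The neutrophil mean set wild type marrow 1 apart as well, at 11.40 against 11.72 to 11.88 in the other 4 marrow samples. Its pericyte mean, at 6.23, was only just above those of the others, at 5.63 to 6.13. The osteoblast and chondrocyte mean, which covers cells known to make MMP13, was 4.52 and 4.31 in wild type and 4.76, 4.87 and 4.56 in deficient marrow. These are low values, and of its 7 measured markers 5 were higher and 2 lower in deficient marrow. The part of these cells in the Mmp13 values was not tested.

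Whether the genotype difference itself differed between tissues was tested as an interaction, tumour difference minus marrow difference. Tfpi2 gave 1.46 (SE 0.61, limma adjusted p = 0.541), Mmp13 1.84 (SE 0.89, adjusted p = 0.634), Timp1 0.94 (SE 0.58, adjusted p = 0.769) and Mmp2 0.89 (SE 0.48, adjusted p = 0.708). None of the 10 members was called, against 0.319% of all genes. Unadjusted p-values were under 0.05 for Tfpi2 (0.0235) and Mmp13 (0.0479), beside 7.83% of all genes.

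Single tumours differed widely in most of these genes. The SD of Mmp13 over the 24 tumours was 0.94, larger than that of 99.0% of genes, and those of Tfpi2 (0.75), Timp3 (0.65), Timp1 (0.61), Mmp14 (0.54) and Mmp2 (0.47) were larger than those of 97.9%, 96.5%, 95.9%, 94.2% and 92.1%. Timp2 (0.37) and Reck (0.27) came next, and Mmp9 (0.22) and Mmp8 (0.21) were close to the median gene, at 0.19. The neutrophil proteases thus varied little between tumours, where both were near the low end of the array's values.

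Particular tumours carried the extremes. Wild type tumour 1 was the highest for Mmp2 and the next after the highest for Mmp8, Mmp14 and Timp2. Deficient tumour 10 was the highest for Timp1 (8.02), Timp2 (9.15) and Mmp8 (3.75) and was near the lowest for Reck (5.98). Deficient tumour 16 was the highest for Mmp14 (8.07) and followed deficient tumour 10 in Timp1, at 7.51. Deficient tumour 9 was the lowest for Timp1 (5.09), Timp2 (7.78) and Timp3 (6.15). Wild type tumour 5 held the highest Mmp13 (8.37) and Mmp9 (4.58) and the lowest Tfpi2 (3.13).

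**Figure D3:**
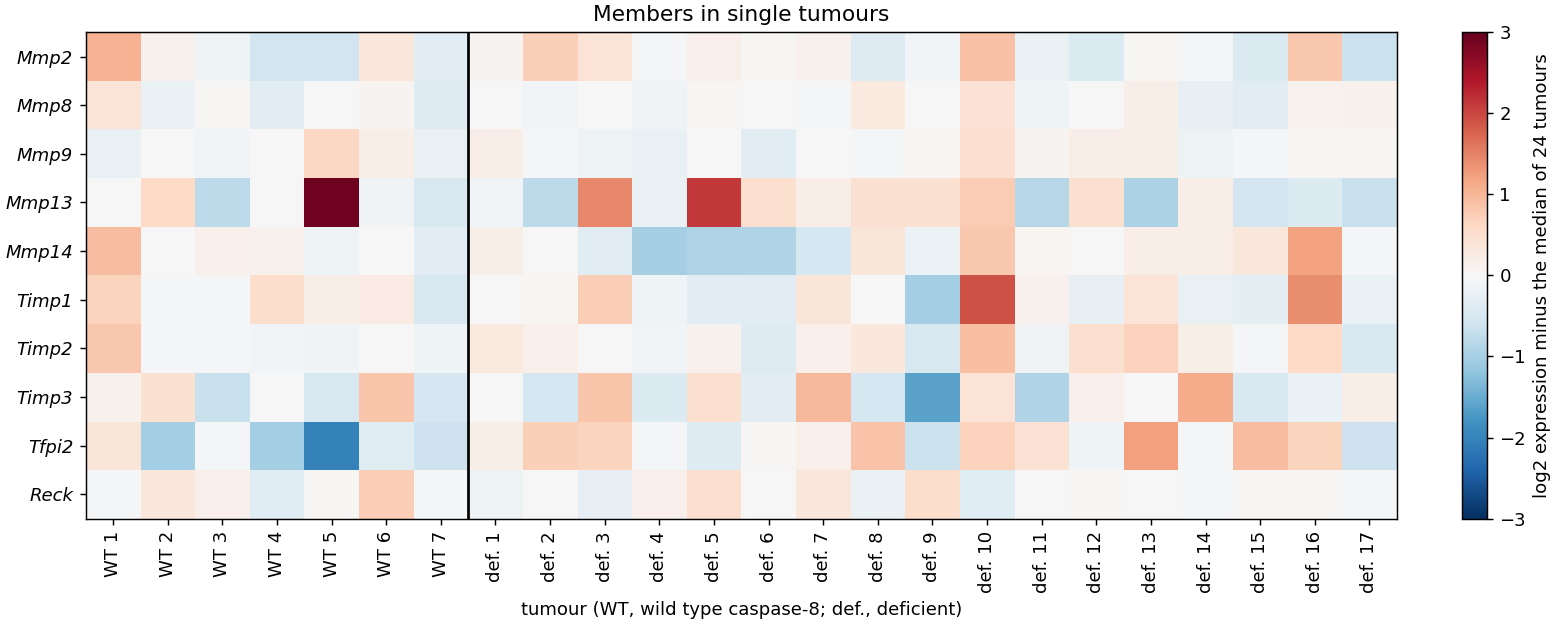
Each cell is the log2 expression of a gene in 1 tumour minus its median over the 24 tumours, with 7 wild type tumours left of the line and 17 deficient tumours right of it. Red is above and blue below the median. The darkest cells are Mmp13 in wild type tumour 5 and deficient tumour 5, and Tfpi2 in wild type tumour 5.

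Across the 24 tumours, 7 of the 45 pairs of members were correlated at an adjusted permutation p under 0.05 (100000 resamples, two-sided, adjusted over the 45 pairs), all of them positively. Pairs of other genes were not tested in this way, so no background share stands beside this count, and it is not a trait particular to these genes. By rank none of the 45 passed, the lowest adjusted permutation p of Spearman's rho being 0.0524 (Mmp14 with Timp2, and Timp2 with Tfpi2). Timp2 took part in 5 of the 7. Timp1 and Timp2 had Pearson's r = 0.69 (permutation p = 0.00018, adjusted p = 0.0081) and Spearman's rho = 0.55, and r was 0.58 in the lower and 0.73 in the higher title series. Without deficient tumours 10 and 16, the farthest from the median of Timp1, it was 0.51.

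Mmp14 and Timp2, which act as one complex on MMP2, had r = 0.63 (rho 0.62, permutation p = 0.00102, adjusted p = 0.0230), with 0.74 and 0.70 in the lower and higher series and 0.61 without the 2 farthest tumours. Mmp2 was correlated with Timp1 (r = 0.60, rho 0.47, permutation p = 0.00183, adjusted p = 0.0236) and with Timp2 (r = 0.60, rho 0.57, permutation p = 0.00232, adjusted p = 0.0236). These fell to 0.45 and 0.36 without wild type tumour 1 and deficient tumour 10. Mmp14 and Timp1 had r = 0.59 (rho 0.45, permutation p = 0.00262, adjusted p = 0.0236), Mmp8 and Timp2 r = 0.57 (rho 0.53, permutation p = 0.00332, adjusted p = 0.0249), and Timp2 and Tfpi2 r = 0.53 (rho 0.60, permutation p = 0.00738, adjusted p = 0.0474). Mmp8 lay only between 2.92 and 3.75 in tumours, near the low end of the array's values, which limits what its correlation can show. The Mmp14 values are those of its brightest probe set, with which its other ones had r = -0.10 and 0.81 over the tumours. Within deficient tumours alone 2 pairs passed, in fewer samples.

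The lowest correlations did not pass. Mmp13 and Tfpi2 had r = -0.48 (rho -0.34, permutation p = 0.0187, adjusted p = 0.0843), which was -0.13 without the 2 farthest tumours and so rested on them. Timp1 and Reck had r = -0.44 (permutation adjusted p = 0.128), and Mmp14 and Reck r = -0.37 (permutation adjusted p = 0.210).

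**Figure D4:**
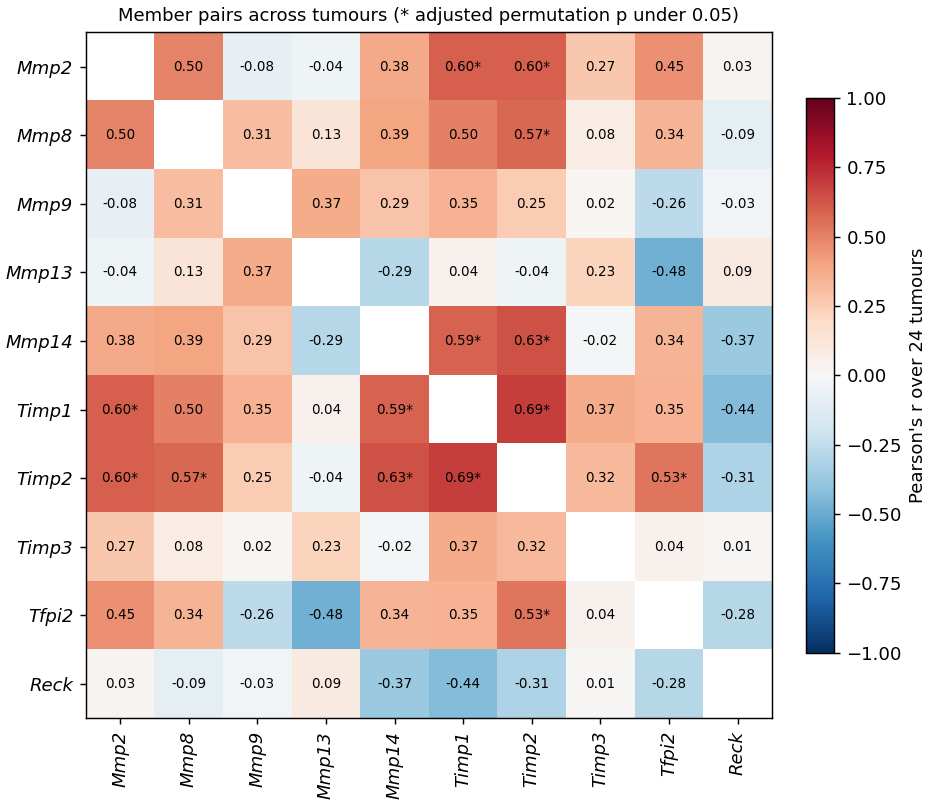
Pearson's r for each pair of the 10 genes over 24 tumours, red for positive and blue for negative values. Asterisks mark the 7 pairs with an adjusted permutation p under 0.05, 5 of which include Timp2.

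Beside these pairs stand the correlations of each member with the means of 13 marker lists over the same tumours, 22 of 130 at an adjusted permutation p under 0.05 by Pearson's r, 17 by Spearman's rho and 14 by both. The share for other genes was not taken here either. Tfpi2 followed the pericyte and smooth muscle mean (r = 0.81, rho 0.73) and the endothelial mean (r = 0.81, rho 0.79), both at a permutation p of 1e-05, the smallest the resamples can give, and an adjusted p of 0.00065. Without the 2 farthest tumours r was 0.69 and 0.70. Within the lower and higher title series the pericyte value was 0.48 and 0.88, and within deficient tumours 0.77.

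The fibroblast mean passed with 5 members by Pearson's r: 0.71 with Mmp2 (permutation adjusted p = 0.00563), 0.66 with Timp2 (adjusted p = 0.00845), 0.65 with Timp1 (adjusted p = 0.0127), 0.60 with Tfpi2 (adjusted p = 0.0181) and 0.56 with Mmp14 (adjusted p = 0.0302). By rank it passed with Timp2 (rho 0.63), Timp1 (0.60) and Tfpi2 (0.69), and not with Mmp2 (0.48, permutation adjusted p = 0.0796) or Mmp14 (0.52, adjusted p = 0.0614). The osteoclast mean, which was low in tumours (4.64 to 5.08), had the highest r with Timp2 (0.68, permutation adjusted p = 0.00845), Mmp14 (0.62, adjusted p = 0.0142) and Mmp8 (0.51, adjusted p = 0.0578). By rank Timp2 was closest to the pericyte and smooth muscle mean (rho 0.71, permutation adjusted p = 0.00676, r = 0.59). Timp2 also passed by both measures with the endothelial mean (r = 0.53, rho 0.63). Mmp14 passed with the pericyte mean by rank (rho 0.60, permutation adjusted p = 0.0208) and not by Pearson's r (0.47, adjusted p = 0.0896). Timp3 was closest to the macrophage mean (r = 0.63, permutation adjusted p = 0.0127), at 0.39 without the 2 farthest tumours, and Mmp9 to the erythroid mean (r = 0.56, permutation adjusted p = 0.0429), at 0.21 without them. Both Mmp8 and Mmp9 were near the low end of the array's values in tumours. The macrophage mean also passed by both measures with Timp1 (r = 0.64, rho 0.73) and Timp2 (r = 0.65, rho 0.61). By rank it was the closest list to Timp1, at a permutation adjusted p of 0.00676. The adipocyte mean passed by both with Mmp2 (r = 0.59, rho 0.59) and Timp2 (r = 0.61, rho 0.68). Reck and Mmp13 had their highest r with the sympathoadrenal mean, at 0.41 and 0.23 (permutation adjusted p = 0.160 and 0.456). The negative correlations that passed by Pearson's r were those of Mmp13 with the adrenal cortex mean and of Timp2 with the sympathoadrenal mean. The first had r = -0.67 (rho -0.63, permutation adjusted p = 0.00845), with -0.61 and -0.72 in the lower and higher title series and -0.55 without the 2 farthest tumours, for a list mean that spanned only 4.664 to 4.865 over the 24 tumours. The second had r = -0.62 (rho -0.52, permutation adjusted p = 0.0127), and its rho did not pass (adjusted p = 0.0643). Tfpi2 with the sympathoadrenal mean passed by rank (rho -0.56, permutation adjusted p = 0.0417) and not by Pearson's r (-0.47, adjusted p = 0.0896). How far these cells account for the correlations between members was not tested.

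The 3 genes of all 18193 with the highest Pearson's r over 24 tumours were taken for each member as a measure of likeness, with no test. For Tfpi2 they were Tanc1 (0.86), Snai2 (0.86), a repressor of epithelial genes, and Pdgfrb (0.85), the PDGF receptor of pericytes and itself one of the pericyte markers. For Timp2 they were Ctsd, the lysosomal protease cathepsin D (0.94), Dhrs3 (0.91) and Abcc3 (0.89). For Timp1 they were Ccdc80 (0.82), Serping1, the C1 inhibitor (0.80), and Sulf1 (0.80), and for Timp3 Depp1 (0.82), Rgs1 (0.80) and Tmed3 (0.79).

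Among the proteases, Mmp14 was most like Tmem63a (0.81), Hoxb2 (0.77) and Ctsd (0.76), so Ctsd appeared for both Mmp14 and Timp2. Mmp2 was most like Rarres2, which encodes chemerin (0.78), Ypel5 (0.78) and Gprin3 (0.77). Mmp8 was most like Nfkb2 (0.73), Rela (0.69) and Capns1 (0.68), and Mmp9 like Tmem45a2 (0.74), Mmp20 (0.73) and Pou2f3 (0.73), with both members near the low end of the array. Reck was most like Lrguk (0.90), Oga (0.83) and Larp6 (0.82).

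For Mmp13 the most alike gene was its neighbour Mmp12, the macrophage elastase, with r = 0.87 and rho = 0.87, followed by Ptgs2, which encodes cyclooxygenase-2 (0.73), and Klf4 (0.70). The value for Mmp12 was 0.83 without the 2 farthest tumours, and 0.91 and 0.87 in the lower and higher title series. Mmp12 ran from 5.79 to 8.63 in tumours, with its highest value, like that of Mmp13, in wild type tumour 5. In marrow the genes parted: Mmp12 was between 3.28 and 3.97, far below its tumour values (tumours minus marrow 3.57, SE 0.37, limma adjusted p = 8.112e-10), whereas Mmp13 was higher in marrow. The other 7 measured genes of the cluster, which were looked at after these values were known, were too low in tumours for a likeness to be read. Their highest tumour values lay between 2.86 (Mmp1a) and 4.83 (Mmp3), and their r with Mmp13, from -0.37 for Mmp7 to 0.24 for Mmp1b, says nothing of a shared or different pattern. Mmp8 was higher in marrow, as Mmp13 was, and its pattern over tumours could not be compared with that of Mmp13.

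**Figure D5:**
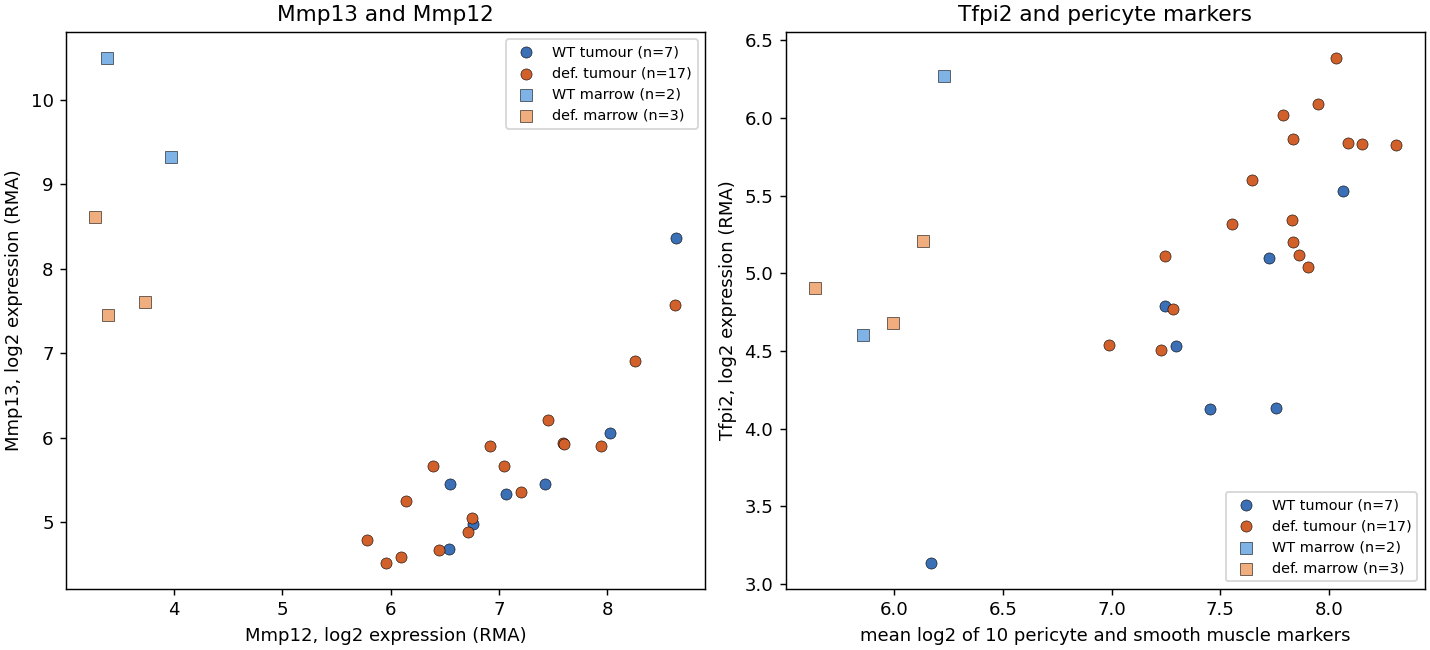
Left, log2 expression of Mmp13 against that of Mmp12. Right, log2 expression of Tfpi2 against the mean log2 of 10 pericyte and smooth muscle markers. Circles are tumours and squares marrow samples, coloured by genotype. In tumours both pairs rise together (r = 0.87 and 0.81), while marrow has high Mmp13 with low Mmp12.

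Other genes of the same protease system were described from 3 lists. Of 19 further metalloproteinases with Timp4, 14 were measured, and 9 were called between tissues, 5 higher and 4 lower in tumours, with a median difference of -0.11. Over all genes 76.4% were called, 34.2% higher and 42.2% lower, with a median of -0.10, and the same holds as background for the lists that follow. The membrane-type Mmp16 (4.18) and Mmp24 (1.93), with Mmp12 and Mmp11 (0.78), were among the higher ones, and Mmp7 (-0.72), Timp4 (-0.40), Mmp19 (-0.19) and Mmp1b (-0.17) were the lower ones. All 4 lower ones were near the low end of the array in both tissues. Their group means ran from 2.51 (Mmp1b, wild type tumours) to 4.70 (Mmp7, wild type marrow). Of 18 measured ADAM and ADAMTS proteases, which shed membrane proteins or cut proteoglycans, 7 were called higher and 8 lower, with a median of 0.13 beside -0.10 over all genes. Adamts20 (3.71), Adamts1 (1.73), Adam23 (0.95) and Adam12 (1.01) were higher, and Adam8 (-2.79), Adam10 (-1.67), Adam33 (-1.08) and Adam17 (-0.61), the sheddase of tumour necrosis factor, were lower.

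Of 19 measured activators and other regulators, 6 were called higher and 12 lower in tumours, beside 34.2% and 42.2% of all genes, with a median of -0.41 beside -0.10. The testicans Spock1 (5.91), Spock3 (3.85) and Spock2 (2.40), proteoglycans of neural tissue, were the higher ones of smallest p together with Plat, the tissue plasminogen activator (1.15). Integrin Itgb3 (-4.18), the urokinase receptor Plaur (-3.78), Furin (-0.91), the convertase that activates MMP14, and Bsg (-1.33), an inducer of metalloproteinases, were lower.

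Between genotypes no gene of these lists was called. In tumours the medians were 0.022, 0.16 and -0.042 for the metalloproteinases, the ADAM group and the regulators, beside 0.0042 over all genes. The genes of smallest p were Mmp20 (-0.16) and Mmp19 (-0.13), Adamts9 (0.33) and Adamts8 (0.15), and Itgav (0.33) and Bsg (-0.16). In marrow the medians were -0.11, -0.033 and 0.017, beside -0.013 over all genes, and the genes of smallest p were Mmp19 (-0.31) and Timp4 (-0.30), Adamts4 (-0.56) and Adamts12 (0.45), and Plau, urokinase (0.83), and Itgav (0.31). In the interaction the medians were 0.100, 0.23 and -0.047, beside 0.016 over all genes.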

How the data were processed

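Expression was measured on 29 arrays (mouse 3' expression type), each with RNA of 1 sample. Per the labels' protocols, RNA came from a Trizol extraction and was amplified over a pair of cycles. The authors deposited log2 values that they made with RMA in Partek 6.6, according to the submitters' processing notes. Whether one RMA run covered every array is not stated in these sources. Low signals are compressed by RMA, and precision depends on the number of arrays, since arrays have no depth.

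The platform annotation gave 1 symbol for 34945 of 45101 probe sets, several for 932 and none for 9160, with 64 array controls set aside. For 34741 of the probe sets with 1 symbol, the symbol was taken by Entrez ID from a GRCm38.p6 gene table, whether or not it changed. All values were kept.

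Samples were grouped by the tissue and genotype in their labels. Two-sided tests used limma 3.58.1 (R 4.3.3; lmFit, then eBayes), with p-values adjusted by Benjamini-Hochberg over all 18193 genes and calls made below 0.05. Tumours and marrow were fitted apart for genotype, and together, as 4 groups, for tissue and for the interaction. Because no label ties samples to animals, p-values reflect the spread among samples, part of which may be technical. The fits were run on simulated data with independent normal noise and the same SD in every group. That checked only that planted differences were recovered on average, and not how reliable the calls in the real data are. Alternatives were other probe set rules, a filter at a mean log2 of 5, other normalizations, a trended variance, array weights, covariates and other sets of samples. A covariate for Xist at or above 8 was added after the data were seen. The members and the marker and pathway lists were chosen with earlier results of these data known. The rule named all members, up to 4 called genes per list and direction (with none called, the 2 of smallest p), the 3 most alike genes, the 6 highest and 3 lowest pairs, and the marker list of highest r per member. Beyond it, Timp2 with Tfpi2, further marker lists and genes of the chromosome 9 cluster were named after their values were seen. Figures were drawn with matplotlib 3.10.9.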

Additional observations from a re-analysis of the deposited data

Results flagged for a closer look

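Among the 7 wild type tumours, the highest value stood far from the others for 3 of the 10 genes, where the gap to the next tumour was more than 0.568 of the whole range. Mmp13 was at 8.37 in wild type tumour 5, with the next at 6.06 (a gap of 0.626 of the range). Mmp14 was at 7.77 in wild type tumour 1, with the next at 7 (0.619), and Timp2 was at 9.07 in the same tumour, with the next at 8.25 (0.881). Chance flags about 5% of such groups, and 10 were examined. Without wild type tumour 5 the genotype difference of Mmp13 was 0.25 in place of -0.19.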

How the results depend on the processing

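No paired analysis was possible because the labels give no replicate numbers that the groups share. Of 435 values of the 50 member differences under alternatives other than leaving out a sample, 413 kept direction and side of the threshold, 3 became called and 19 changed sign. The 3 were Mmp14 against marrow with a mean log2 of at least 5 (0.54) and in the higher title series (0.61), and Timp2 with arrays centred (-0.50). Sign changes in tumour genotype were, in the lower series, Mmp2 -0.14, Mmp8 -0.10, Mmp9 0.025, Mmp13 0.51, Timp2 -0.21 and Timp3 0.18, and in the higher series, Mmp14 0.38 and Timp1 0.069. Others there were Timp2 at -0.0044 with the mean of probe sets and -0.0027 with the 3' minus 5' covariate, Timp3 at 0.028 with array weights, and Timp1 at 0.013 and Timp3 at 0.0023 with the Xist covariate. In the interaction with tissue, Mmp8 was at 0.011 with arrays centred, 0.050 with array weights and 0.13 in the higher series, and Timp2 at 0.16 in the higher series. In the interaction with title series, Mmp9 was at 0.0074 with the mean of probe sets and Reck at 0.13 with array weights. The causes were not tested.

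Leaving out 1 sample changed the sign in 42 of 630 values. In tumour genotype the ranges were -0.021 to 0.25 for Mmp2, -0.065 to 0.078 for Mmp9, -0.37 to 0.25 for Mmp13, -0.13 to 0.064 for Timp1, -0.12 to 0.13 for Timp3 and -0.16 to 0.021 for Reck. In marrow genotype they were -0.028 to 0.15 for Mmp8, -0.31 to 0.64 for Mmp9 and -1.34 to 0.33 for Tfpi2. Against marrow Tfpi2 ran from -0.64 to 0.19. In the interaction with tissue they were -0.068 to 0.11 for Mmp8, -0.66 to 0.29 for Mmp9 and -0.14 to 0.048 for Timp2, and with title series -0.21 to 0.077 for Mmp9, -0.016 to 0.35 for Timp1 and -0.18 to 0.19 for Reck.

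Counts of called genes moved by over 1.5 times in these cases. With each probe set fitted by itself they were 1 in tumours, 9 in marrow, 31676 between tissues and 93 in the interaction with tissue, of more features tested. With a mean log2 of at least 5 they were 2 in marrow, 9170 between tissues and 19 in the interaction, of fewer genes. Marrow gave 2 with the mean of probe sets and 83 in the 4-group model. The interaction with tissue, at 58, gave 124 after another quantile normalization, 13 with array weights, 12 in the higher series, and 32 to 422 without 1 marrow sample (422 without wild type marrow 2). The interaction with title series gave 0 to 1 without 1 tumour, and member pairs were 2 in deficient tumours only. No alternative called a member for genotype.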
